A study of Mus musculus with 46 samples.

Results

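The genes described here encode ISG15 and the enzymes that attach it to proteins and remove it. They were chosen by gene name and are Isg15, Uba7, Ube2l6, Herc6, Trim25 and Usp18, 6 genes of the 53465 in the count table. Isg15, Usp18 and Herc6 were the members that passed the genotype test, each in at least liver and cerebellum, with Isg15 at about 5.14-fold the p150-positive level in p150-negative liver and about 15.3-fold in p150-negative cerebellum. Ube2l6 passed it in no tissue, and in kidney its mean was lower in the p150-negative animals.

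The study profiled RNA of liver, kidney and cerebellum from mice of strain C57BL/6, aged 23 days after birth. P195A, carried by every animal, is a proline-to-alanine change in the Z-nucleic-acid-binding domain of ADAR p150, the interferon-inducible isoform of the RNA-editing enzyme ADAR. The p150-negative animals are labelled P195A/p150- and the p150-positive animals P195A/p150+, so the P195A change is shared and the p150 status is the labelled difference. There were 8 animals of each genotype and 46 libraries, of which 41 were used: the livers of 7 p150-negative and 7 p150-positive animals, the kidneys of 5 p150-negative and 7 p150-positive animals, and the cerebella of 8 p150-negative and 7 p150-positive animals. No animals without P195A were among the samples.

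ISG15 is a small interferon-induced protein made of a pair of ubiquitin-like domains, and it is coupled to lysines of other proteins much as ubiquitin is. UBA7 is the activating enzyme (E1), UBE2L6 the conjugating enzyme (E2), HERC6 the main ligase (E3) for ISG15 in the mouse, and TRIM25 a further ligase that also works with ubiquitin. USP18 cuts ISG15 from its targets and, separately from that activity, binds the type I interferon receptor and dampens its signal. All are known as interferon-stimulated genes, so they are often read as a record of interferon exposure of a tissue.

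Interferon acts on such genes through the transcription factor complex ISGF3, which binds the interferon-stimulated response element (ISRE), and through interferon regulatory factors, which bind its shorter core. Promoters of 4 members are shown because they differ in these elements: Isg15, which was called higher in all 3 tissues, Uba7 and Trim25, which each hold only the core, and Herc6, which was called higher in 2 tissues and holds neither match. Each runs 5′ to 3′ from 250 bases before to 50 bases after the start site in the RefSeq table of build GRCm38.p6. Capitals mark matches to the ISRE (GAAANNGAAA) or the core (AANNGAAA) on either strand; an ISRE match always contains a core match.
Isg15, chr4:156200769-156201068, minus strand: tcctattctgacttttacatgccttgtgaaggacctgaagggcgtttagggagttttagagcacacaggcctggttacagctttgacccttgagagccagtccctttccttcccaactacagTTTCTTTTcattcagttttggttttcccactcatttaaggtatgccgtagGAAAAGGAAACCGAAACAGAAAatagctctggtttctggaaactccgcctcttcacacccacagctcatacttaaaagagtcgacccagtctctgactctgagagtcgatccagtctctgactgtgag
Uba7, chr9:107975317-107975616, plus strand: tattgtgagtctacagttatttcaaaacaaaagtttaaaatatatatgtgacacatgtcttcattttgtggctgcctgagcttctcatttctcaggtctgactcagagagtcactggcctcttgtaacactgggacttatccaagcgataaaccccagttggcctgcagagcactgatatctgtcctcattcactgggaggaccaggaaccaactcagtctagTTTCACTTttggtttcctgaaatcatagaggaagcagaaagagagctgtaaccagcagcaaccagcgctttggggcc
Trim25, chr11:88999153-88999452, plus strand: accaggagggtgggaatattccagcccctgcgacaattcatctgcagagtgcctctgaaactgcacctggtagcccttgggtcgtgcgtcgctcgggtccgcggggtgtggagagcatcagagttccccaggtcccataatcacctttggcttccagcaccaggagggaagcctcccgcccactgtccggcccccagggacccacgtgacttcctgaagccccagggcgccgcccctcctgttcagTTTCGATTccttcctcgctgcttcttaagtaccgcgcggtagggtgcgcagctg
Herc6, chr6:57580742-57581041, plus strand: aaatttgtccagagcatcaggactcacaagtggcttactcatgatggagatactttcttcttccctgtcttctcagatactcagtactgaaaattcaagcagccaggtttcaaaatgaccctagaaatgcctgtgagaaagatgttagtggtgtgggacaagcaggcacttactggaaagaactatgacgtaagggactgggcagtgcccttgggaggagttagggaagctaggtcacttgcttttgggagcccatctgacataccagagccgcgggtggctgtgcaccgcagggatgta

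The Isg15 window held 3 overlapping ISRE matches, starting 78, 72 and 66 bases before the start site, and 1 further core match on the other strand at 128 bases before it. The Uba7 window held a single core match starting 27 bases before the start site, and the Trim25 window a single core match starting 4 bases before it. Of the 5 member promoters in the table, 1 held an ISRE and 3 held a core, and the Ube2l6 window held neither. Among all 32851 promoters in the table, 3.44% held an ISRE and 23.9% a core. Usp18 is named only.

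In the GRCm38 gene annotation, Isg15 lies on chr4:156199424-156200818 with 756 exon bases, Uba7 on chr9:107975505-107984060 with 6692, and Ube2l6 on chr2:84798828-84810335 with 1996. Herc6 lies on chr6:57581000-57664632 with 9292 exon bases, Trim25 on chr11:88999376-89020293 with 5754, and Usp18 on chr6:121245906-121270917 with 2790. Reads over a few stretches could not be given to 1 gene: 13.7% of the Herc6 exon bases and 3.48% of those of Uba7 also belong to same-strand neighbours, and 4.44% of those of Usp18 to a neighbour on the other strand. For Isg15, 28 of its 707 stretches of 50 bases (3.96%) also occur in the annotated gene AC151275.1, and 170 of 2043 (8.32%) of those of Ube2l6 occur in other genes.

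Library totals ran from 269213 to 6237043 counts, with a median of 2948878, so a gene at 3 counts corresponds to very different CPM (counts per 1000000 counts of the library) from library to library. In the 41 libraries the summed level of 4 identity genes of the labelled tissue was 58.4 to 174% of that tissue's median, and in the 5 libraries left out it was at most 0.805%. Adar, which the labelled genotype concerns, passed the test in no tissue (edgeR adjusted p = 0.317 in liver, 0.973 in kidney and 0.723 in cerebellum). Gene counts sum over the isoforms of Adar, so they check no p150 label. In bulk tissue, fewer cells of a type and less RNA per cell cannot be told apart.

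Among the libraries used, 2 stood apart in these genes. The cerebellum library labelled p150-negative of animal 2 had 2.56 CPM of Isg15 and 3.475 CPM of Usp18, inside the p150-positive range, while the other 7 p150-negative cerebella had at least 45.9 CPM of Isg15 and at least 133 CPM of Usp18. The liver and kidney libraries of that animal were among those left out, and since gene counts check no p150 label, whether its genotype label is right could not be tested. The means, SDs and fold changes of p150-negative cerebella include it unless stated. The liver of p150-positive animal 12 had the highest Isg15, Uba7, Ube2l6, Herc6 and Usp18 of its group, and its own kidney library was left out. Many results that rest on either animal, but not all, are given with and without it.

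**Figure D1:**
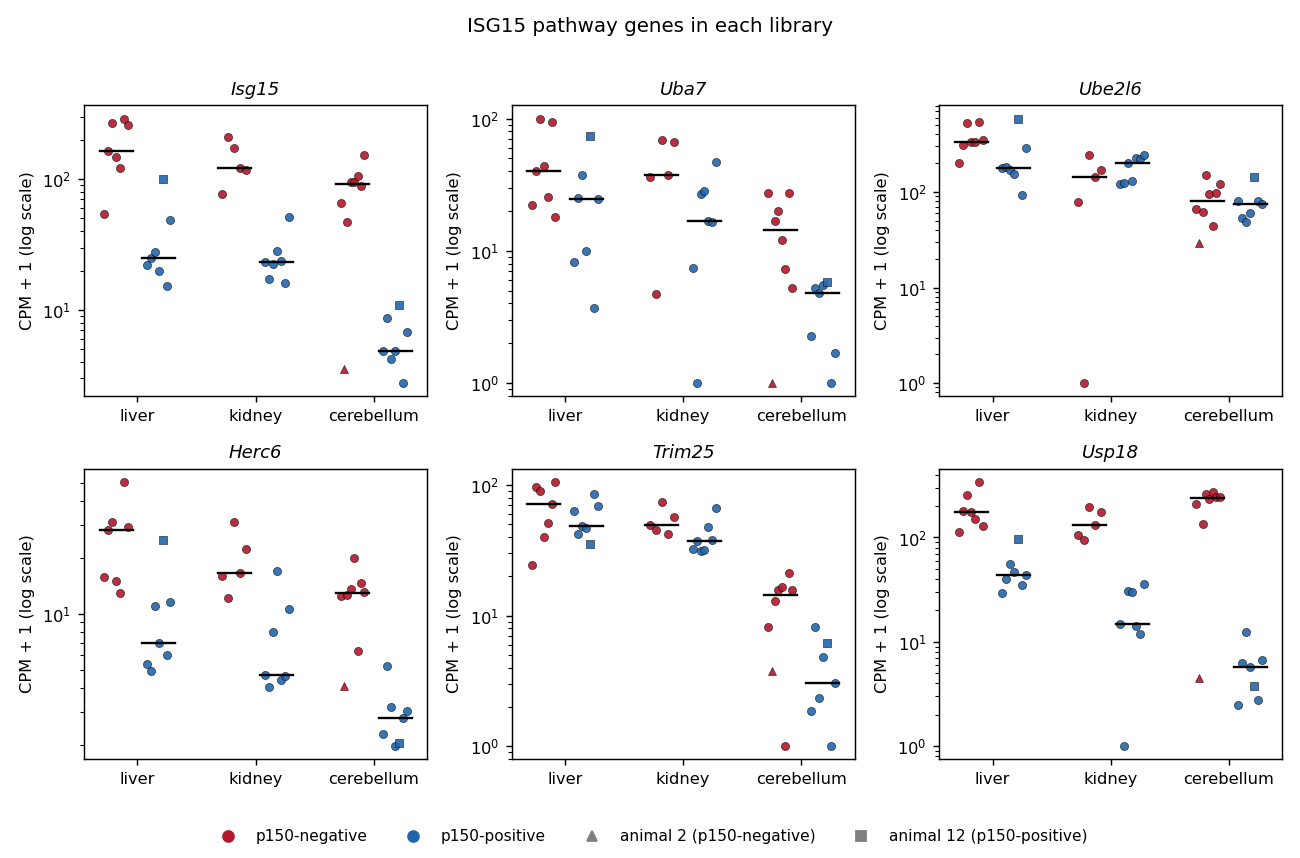
CPM plus 1 (log scale) of each gene in every library used, by tissue, with p150-negative libraries left of p150-positive ones and a line at each group's median. Triangles mark animal 2 and squares animal 12: the cerebellum of animal 2 sits with the p150-positive cerebella in Isg15 and Usp18, and the liver of animal 12 is the highest p150-positive liver in all genes except Trim25.

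Isg15, the modifier itself, was higher in all 3 p150-negative tissues. In liver it had 52.7, 120, 146, 163, 259, 268 and 288 CPM in p150-negative animals, against 14.3, 19.0, 20.9, 23.7, 26.7, 47.5 and 99.8 CPM in p150-positive animals, where the highest is animal 12. In kidney it had 75.4, 116, 121, 172 and 208 CPM in p150-negative animals, against 15.2, 16.2, 21.5, 22.2, 22.7, 27.2 and 50.5 CPM in p150-positive animals. The kidney groups did not overlap, and in liver 6 of 7 p150-negative libraries lay above the highest p150-positive one. In cerebellum it had 2.56, 45.9, 64.9, 87.9, 93.3, 94.5, 105 and 151 CPM in p150-negative animals, against 1.76, 3.25, 3.84, 3.84, 5.74, 7.74 and 10.0 CPM in p150-positive animals. All p150-negative cerebella except that of animal 2 lay above every p150-positive cerebellum.

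The Isg15 log2 fold change of p150-negative over p150-positive was 2.36 ± 0.40 (SE) in liver, with an adjusted p of 4.11e-04 in edgeR's quasi-likelihood test. In kidney it was 2.32 ± 0.31 (adjusted p = 0.002 in the same edgeR test) and in cerebellum 3.94 ± 0.56 (adjusted p = 6.26e-04). Without animal 12 the liver value was 2.86, and without animal 2 the cerebellum value was 4.13, both still called. The spread within a group was wide: the SD was 47.7% of the mean in p150-negative livers and 83.6% of it in p150-positive livers.

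Uba7, the E1 that starts the ISG15 pathway, had higher mean levels in the p150-negative animals of each tissue but passed the test in none. It averaged 48.1 ± 34.0 CPM in p150-negative livers and 25.1 ± 24.1 CPM in p150-positive livers (SD, n = 7 each). In kidney the averages were 41.8 ± 26.3 CPM in p150-negative animals (SD, n = 5) and 19.5 ± 15.1 CPM in p150-positive animals (SD, n = 7), and in cerebellum 13.7 ± 9.9 CPM in p150-negative animals (SD, n = 8) and 2.76 ± 2.03 CPM in p150-positive animals (SD, n = 7). The groups overlapped in every tissue. The log2 fold changes were 0.94 ± 0.50 in liver, 1.09 ± 0.64 in kidney and 2.28 ± 0.80 in cerebellum, with edgeR adjusted p of 0.277, 0.746 and 0.291. Without animal 12 the liver value was 1.5 and was called (edgeR adjusted p = 0.039). Without animal 2 the cerebellum value was 2.48 and was not called by edgeR (adjusted p = 0.0931) or by limma voom (3.29, adjusted p = 0.072), but was by DESeq2 (2.48, adjusted p = 0.00467). Uba7 was read 0 times in 3 libraries: the cerebellum of p150-negative animal 2, where 3 counts equal 0.549 CPM, and the kidney of animal 5 and cerebellum of animal 13, both p150-positive, where they equal 2.31 and 0.481 CPM.

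Ube2l6, the E2, did not follow Isg15. In liver it had 202, 306, 331, 336, 346, 525 and 533 CPM in p150-negative animals, against 92.6, 153, 169, 177, 180, 287 and 584 CPM in p150-positive animals. All 7 p150-negative livers lay above the p150-positive median, and the single highest liver was that of p150-positive animal 12. In kidney it had 0, 78.3, 143, 171 and 245 CPM in p150-negative animals, against 120.5, 123, 130, 199, 223, 224 and 244 CPM in p150-positive animals. The 0 belongs to animal 3, whose library was the shallowest at 269213 counts, where 3 counts equal 11.1 CPM. In cerebellum the range was 28.0 to 151 CPM in p150-negative animals (median 79.1) and 47.4 to 143 CPM in p150-positive animals (median 74.0). The groups overlapped widely in kidney and cerebellum.

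Its log2 fold change came to 0.67 ± 0.30 in the livers, -0.53 ± 0.49 in the kidneys and 0.08 ± 0.30 in cerebellum, with edgeR adjusted p of 0.185, 0.901 and 0.969. The 95% interval of the cerebellum value ran from -0.52 to 0.67. Without animal 12 the liver value was 1.08 and was called (edgeR adjusted p = 0.00318). Without animal 3 the kidney value was -0.26.

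Herc6, the ligase, was a low-count gene that was higher in p150-negative liver and cerebellum. In liver it had 11.9, 14.0, 14.7, 27.0, 28.2, 30.2 and 49.9 CPM in p150-negative animals, against 3.96, 4.41, 5.02, 5.94, 10.0, 10.5 and 23.8 CPM in p150-positive animals. In cerebellum it had 3.11, 5.29, 11.5, 11.6, 12.2, 12.6, 13.6 and 18.9 CPM in p150-negative animals, against 0.959, 1.04, 1.28, 1.76, 2.03, 2.17 and 4.24 CPM in p150-positive animals. Only the cerebellum of animal 2 among the p150-negative cerebella lay inside the p150-positive range, while in liver 3 of 7 p150-negative libraries lay below animal 12. In kidney it had 11.1, 14.9, 15.6, 21.3 and 30.1 CPM in p150-negative animals, against 3.08, 3.42, 3.64, 3.70, 6.97, 9.66 and 15.9 CPM in p150-positive animals, and the groups overlapped.

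The Herc6 log2 fold change was 1.45 ± 0.39 in liver (edgeR adjusted p = 0.0189) and 2.47 ± 0.45 in cerebellum (edgeR adjusted p = 0.00621). In kidney it was 1.44 ± 0.48 and was not called (edgeR adjusted p = 0.279), a value close to that of liver but estimated from 5 p150-negative libraries with 3 to 86 reads each. The liver call was lost without p150-negative animal 14 (1.21, edgeR adjusted p = 0.0626) and with the level of Xist, a transcript of females, as a covariate (1.27, edgeR adjusted p = 0.0612). Without animal 12 the liver value was 1.92, and without animal 2 the cerebellum value was 2.62, both still called.

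Trim25, the second ligase, was called in no tissue. It averaged 67.5 ± 30.9 CPM in p150-negative livers and 54.8 ± 17.6 CPM in p150-positive livers (SD, n = 7 each), a log2 fold change of 0.29 ± 0.29 with an edgeR adjusted p of 0.625. In kidney the averages were 52.9 ± 12.8 CPM in p150-negative animals (SD, n = 5) and 39.9 ± 13.0 CPM in p150-positive animals (SD, n = 7), a log2 fold change of 0.32 ± 0.28 with an edgeR adjusted p of 0.887. The liver difference was smaller than the SD of either group, and the groups overlapped in both tissues. In cerebellum 6 of 8 p150-negative libraries, at 7.26 to 20.4 CPM, lay above the highest p150-positive library at 7.24 CPM, animal 2 had 2.74 CPM and animal 11 had 0 reads. The cerebellum log2 fold change was 1.88 ± 0.72 (edgeR adjusted p = 0.363). It was called when the 3 tissues were fitted together and so shared a dispersion (1.92, edgeR adjusted p = 0.0195).

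Usp18, the ISG15 protease and receptor-bound brake, had the largest fold changes of the 6 genes in kidney and cerebellum. In liver it had 113, 128, 150, 174, 177, 254 and 340 CPM in p150-negative animals, against 28.1, 34.0, 39.0, 42.7, 45.8, 54.7 and 94.6 CPM in p150-positive animals. In kidney it had 92.9, 105, 131, 173 and 196 CPM in p150-negative animals, against 0, 10.9, 13.3, 13.8, 29.1, 29.5 and 34.7 CPM in p150-positive animals. The genotypes did not overlap in liver or in kidney. In cerebellum it had 3.475, 133, 209, 232, 244, 245, 260 and 271 CPM in p150-negative animals, against 1.49, 1.76, 2.76, 4.8, 5.24, 5.74 and 11.4 CPM in p150-positive animals. The 7 p150-negative cerebella other than that of animal 2, at 133 CPM or more, lay far above the highest p150-positive cerebellum, at 11.4 CPM.

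Usp18 had log2 fold changes of 1.99 ± 0.26 in liver (edgeR adjusted p = 2.39e-05), 2.80 ± 0.51 in kidney (0.0136) and 5.37 ± 0.64 in cerebellum (1.84e-04). Without animal 2 the cerebellum value was 5.57, and without animal 12 the liver value was 2.23, both still called. The kidney call was lost without p150-negative animal 8 or 16 or p150-positive animal 4 or 10, with edgeR adjusted p of 0.0665, 0.0585, 0.05001 and 0.0550 and log2 fold changes of 2.65 to 2.74. It was also lost with the first part of the animals' identifiers as a block (2.63, edgeR adjusted p = 0.109). The labels do not say what that identifier part stands for.

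**Figure D2:**
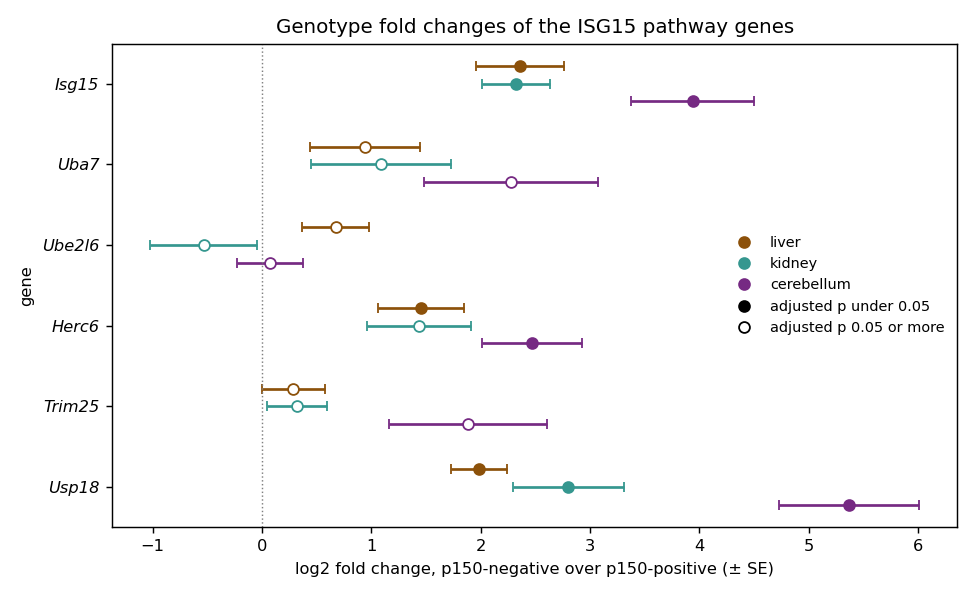
Log2 fold change of p150-negative over p150-positive (horizontal axis, bars ± SE) of each gene in liver, kidney and cerebellum; filled points have an adjusted p under 0.05. Isg15 and Usp18 are filled in all 3 tissues and Herc6 in liver and cerebellum, while Ube2l6 lies near 0 in cerebellum and below 0 in kidney.

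All 6 genes were tested in each tissue. In liver 3 members were called higher, on a background of 6.94% of the 9843 genes tested; in kidney 2 were, on a background of 0.385% of 11957 genes; and in cerebellum 3 were, on a background of 0.723% of 13146 genes. None was called lower. At an unadjusted p under 0.05 in edgeR's test, 4, 3 and 5 of the 6 differed in liver, kidney and cerebellum. Over all genes tested, 2292 of 9843, 979 of 11957 and 1258 of 13146 did. The 6 had median log2 fold changes of 1.2 for liver, 1.26 for kidney and 2.37 for cerebellum, beside -0.04, -0.07 and 0.0035 over all genes tested. In cerebellum Isg15, Usp18, Herc6, Uba7 and Trim25 passed the count filter only through the p150-negative libraries, where their means were higher. The filter therefore favoured the cerebellum calls of Isg15, Usp18 and Herc6. Herc6 had the lowest median there, 1.76 CPM in p150-positive animals. With a stricter filter, at least 10 CPM in as many libraries as the smaller group, 3 members were tested in cerebellum and 2 were called. Those called were Isg15 and Usp18, which passed this filter through the p150-negative libraries too. Herc6, Uba7 and Trim25 were then not tested. Without animal 12, 5 members were called in liver, all except Trim25. In cerebellum limma voom called none of the 6, with an Isg15 value of 3.45 (adjusted p = 0.363), and it called the same number as edgeR, 3, once animal 2 was left out. The Isg15, Usp18 and Herc6 values were then 4.27, 5.85 and 2.68, with limma adjusted p of 4.98e-05, 5.24e-07 and 8.43e-04.

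White blood cell markers differed between the genotypes in the same libraries. Of 10 neutrophil markers 7 were tested and called higher in p150-negative liver, and their summed level was 431 to 1659 CPM in p150-negative livers and 26.2 to 175 CPM in p150-positive livers. Markers of macrophages and monocytes numbered 10, of which 9 passed as higher in liver, with a sum of 771 to 1921 CPM in p150-negative livers and 271 to 543 CPM in p150-positive livers. Over all genes tested, 6.94% were called higher in liver and 0.385% in kidney. In liver, neither marker sum overlapped between the genotypes. The share of all genes that did not overlap is not given here, so that has no background beside it. Mmp8, Retnlg and Ltf averaged 2.16, 2.77 and 5.48 CPM in p150-positive livers. Of the macrophage list, Ccr2, Cd14 and Ly6c2 averaged 2.31, 4.05 and 4.93 CPM there. Each passed the count filter through the p150-negative livers, where it was high, so the filter favoured its call. This may hold for others of the called markers. The neutrophil markers Ly6g, Cxcr2 and Elane were not tested in liver. In kidney the neutrophil sum was 108 to 243 CPM in p150-negative animals and 8.61 to 85.5 CPM in p150-positive animals, the macrophage sum was 81.7 to 202 CPM in p150-negative animals and 47.6 to 127 CPM in p150-positive animals, and 1 neutrophil and no macrophage marker was called. In cerebellum no neutrophil, macrophage or microglia marker was called in edgeR's test, and 2 of 5, 3 of 5 and 4 of 5 tested had an unadjusted p under 0.05. Of all 13146 genes tested in cerebellum, 1258 did. There the microglia sum was 106 to 278 CPM in p150-negative animals and 101 to 188 CPM in p150-positive animals. In cerebellum the macrophage sum was 92.7 to 208 CPM in p150-negative animals, with Clec4f at 0 in all libraries, and 49.3 to 123 CPM in p150-positive animals, with Clec4f and Marco at 0, and in kidney Vsig4 was at 0 in the p150-negative animals. The part of these cells in the member levels was not tested.

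Whether the genotype effect differed between tissues was tested as the interaction of genotype and tissue, without an animal term unless stated. The Usp18 effect was smaller in liver than in cerebellum, with a difference of log2 fold changes, liver minus cerebellum, of -3.37 ± 0.66 (edgeR adjusted p = 0.0022). It was -3.70 (adjusted p = 8.4e-05) with the animal as a block, -3.56 (3.65e-06) without animal 2 and -3.04 (0.0108) without animal 12. The same difference for Isg15 was -1.57 ± 0.69 and was not called (edgeR adjusted p = 0.262), but was called with the animal as a block (-1.84, edgeR adjusted p = 0.00582). Without animal 2 and without a block the Isg15 difference was -1.76 (edgeR adjusted p = 0.0765). No other member was called between liver and cerebellum, where 2.67% of all genes were. Between liver and kidney and between kidney and cerebellum no member was called, on backgrounds of 1.5% and 0.114%. At an unadjusted p under 0.05, 0 and 3 members differed, beside 1220 of 12970 and 1129 of 14940 genes tested. The Usp18 difference between kidney and cerebellum was -2.57 ± 0.83 (edgeR adjusted p = 0.314), and -2.77 ± 0.64 (adjusted p = 0.0565) without animal 2.

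The tissues also differed in the starting level, read in the p150-positive animals. All 6 genes were higher in liver than in cerebellum, on a background of 34% of genes, with log2 fold changes of 2.60 ± 0.35 for Ube2l6, 3.20 ± 0.47 for Herc6, 3.81 ± 0.46 for Isg15, 4.20 ± 0.70 for Uba7, 4.36 ± 0.41 for Usp18 and 5.28 ± 0.51 for Trim25. All 6 were also higher in kidney than in cerebellum, on a background of 31.9%, with log2 fold changes from 1.38 ± 0.24 for Ube2l6 to 3.94 ± 0.54 for Trim25. The edgeR adjusted p were at most 2.28e-05 for the first comparison and at most 0.00367 for the second. With the animal as a block, Usp18 between kidney and cerebellum was no longer called (1.84, edgeR adjusted p = 0.0572). In liver over kidney 5 of 6 were higher, on a background of 22.2%, and Uba7 was not called (1.18 ± 0.63, edgeR adjusted p = 0.145). Herc6 was called there at 1.29 ± 0.49 (edgeR adjusted p = 0.0386), and was not with the animal as a block (0.81, adjusted p = 0.081) or without animal 12 (0.81, adjusted p = 0.174). These fits scaled libraries by TMM factors. On CPM of library totals, the p150-positive medians in liver and kidney were 23.7 and 22.2 for Isg15 and 177 and 199 for Ube2l6. Exact permutation tests of log2 CPM, adjusted over 30 tests, called Usp18 between these groups (adjusted p = 0.0204). They did not call Isg15, Ube2l6, Herc6 or Trim25 (adjusted p = 0.707, 0.748, 0.657 and 0.256). The part of the scaling in the edgeR calls was not tested.

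Ordered by median CPM, the 6 groups ran for Isg15 from p150-negative liver (163) through p150-negative kidney (121), p150-negative cerebellum (90.6), p150-positive liver (23.7) and p150-positive kidney (22.2) to p150-positive cerebellum (3.84). Each neighbouring pair in that order overlapped except the last, in which the lowest p150-positive kidney (15.2 CPM) lay above the highest p150-positive cerebellum (10.0 CPM). Herc6 had the same order, with medians of 27.0, 15.6, 11.9, 5.94, 3.70 and 1.76 CPM, and all neighbours overlapped. The order for Usp18 differed at the top, where p150-negative cerebellum (238) stood above p150-negative liver (174) and p150-negative kidney (131), followed by the p150-positive livers (42.7), kidneys (13.8) and cerebella (4.8). Its neighbouring groups overlapped too. So in the p150-negative animals cerebellum had the highest median of Usp18 and in the p150-positive animals the lowest. Exact permutation tests of log2 CPM between neighbours called neither end of this order. The mean log2 difference of p150-negative cerebellum over liver, animal 2 included, was -0.43 (adjusted exact p = 0.971). That value rests on animal 2, at 3.475 CPM. Without animal 2 the p150-negative cerebella averaged 227 CPM with a lowest value of 133 CPM, beside a mean of 191 CPM in p150-negative livers. This pair was not tested without animal 2. For p150-positive kidney over cerebellum it was 1.51 (adjusted exact p = 0.336), a pair that edgeR called (adjusted p = 0.00367).

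Levels of different genes were compared per kilobase of exon. In p150-positive cerebellum the median was 37.1 CPM per kilobase for Ube2l6 and 5.08 for Isg15, and Usp18 (1.72), Uba7 (0.566), Trim25 (0.352) and Herc6 (0.190) were lower still. In p150-negative cerebellum the order changed to Isg15 (120), Usp18 (85.2), Ube2l6 (39.6), Trim25 (2.32), Uba7 (2.02) and Herc6 (1.28). The E2 was thus the most abundant member transcript in the p150-positive cerebellum and the third in the p150-negative one. The same exchange was seen in liver, where Isg15 had 216 and Ube2l6 168 CPM per kilobase in p150-negative animals, against 31.4 and 88.8 in p150-positive animals. In kidney Isg15 had 160 and Ube2l6 71.9 in p150-negative animals, against 29.4 and 99.6 in p150-positive animals. Uba7 and Herc6 were the lowest in both livers and both kidneys, at most 5.86 CPM per kilobase.

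**Figure D3:**
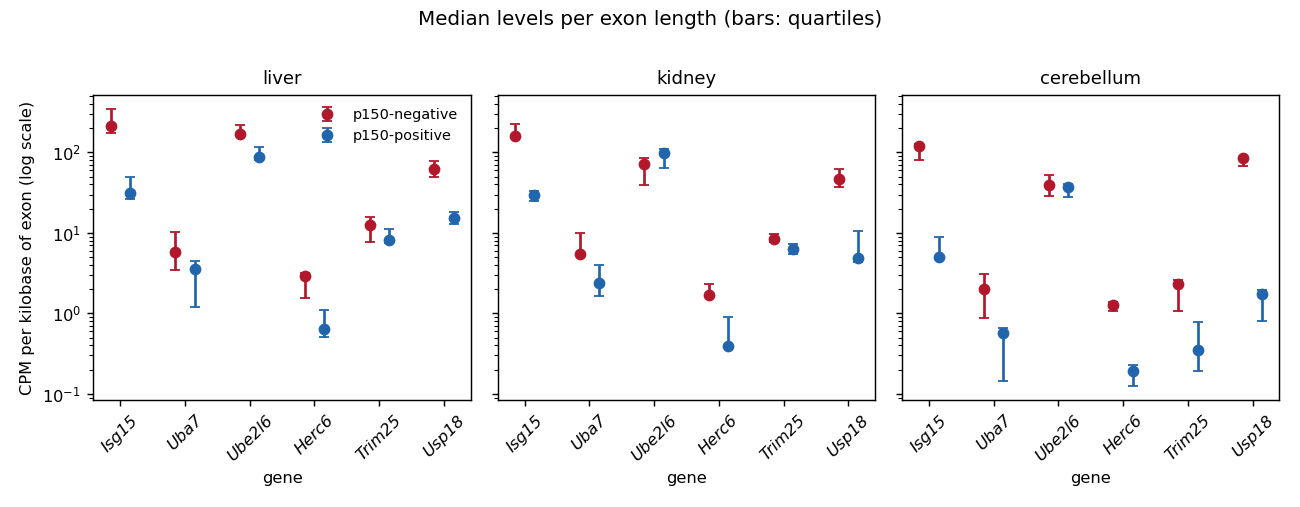
Median CPM per kilobase of exon (log scale) of each gene, p150-negative left of p150-positive, with bars at the quartiles over libraries. In every tissue Ube2l6 is the highest gene in p150-positive animals and Isg15 is the highest in p150-negative animals.

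Within a library, the ratio of Isg15 reads to those of each enzyme shows whether the genes changed by unequal folds, without any scaling between libraries. The 15 ratios, 5 enzymes in 3 tissues, were each compared by a two-sided exact permutation test on log2 values with 0.5 added to each count. Isg15 over Ube2l6 was higher in the p150-negative animals of every tissue. Its mean log2 ratio was -1.11 ± 0.48 in p150-negative livers and -2.78 ± 0.21 in p150-positive livers (SD, n = 7 each), a difference of 1.67 with an exact permutation p of 5.83e-04 and 0.00437 after adjustment over the 15 ratios. In cerebellum it was -0.38 ± 1.35 in p150-negative animals (SD, n = 8) and -3.96 ± 0.81 in p150-positive animals (SD, n = 7), a difference of 3.57 (exact permutation p = 4.66e-04, adjusted 0.00437). In kidney the difference was 3.97 (exact permutation p = 0.00126, adjusted 0.00473), and 2.54 (exact p = 0.00303, adjusted 0.00909) without animal 3, whose 0 reads of Ube2l6 set its ratio.

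Isg15 over Trim25 was also higher in p150-negative liver, by 2.28 (exact permutation p = 0.00291, adjusted 0.00874), and in p150-negative kidney, by 2.04 (exact permutation p = 0.00126, adjusted 0.00473). In cerebellum that difference was 1.46 and was not called (exact permutation p = 0.167, adjusted 0.193). Without animal 2 it was 1.88, also not called (exact permutation p = 0.0542, adjusted 0.0758). Isg15 over Herc6 differed in liver by 0.92 (exact permutation p = 0.00758, adjusted 0.0162), and in cerebellum by 1.16 (exact p = 0.0824, adjusted 0.124), or 1.55 (exact p = 0.00874, adjusted 0.0164) without animal 2. Isg15 over Uba7 differed in liver by 1.2 (exact permutation p = 0.0256, adjusted 0.0481), a call that was lost without animal 12 (1.14, adjusted exact p = 0.0926). In cerebellum that difference was 1.51 (exact permutation p = 0.0923, adjusted 0.126), and in kidney Isg15 over Herc6 differed by 0.81 (exact permutation p = 0.0556, adjusted 0.0926), neither called. In kidney Isg15 over Uba7 was not called (0.96, exact permutation p = 0.432) unless animal 5, with 0 reads of Uba7, was left out (1.69, adjusted exact p = 0.0427). It was 0.16 (exact permutation p = 0.933) without animal 3, which had 1 read of Uba7.

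Isg15 over Usp18 was the exception in direction. In cerebellum it was lower in the p150-negative animals, at -1.24 ± 0.44 (SD, n = 8), against 0.22 ± 1.16 in the p150-positive animals (SD, n = 7), a difference of -1.47 (exact permutation p = 0.00606, adjusted 0.0152). It was -1.58 (exact permutation p = 0.00583, adjusted 0.0146) without animal 2. In liver the difference was 0.50 (exact permutation p = 0.153, adjusted 0.192) and in kidney -1.09 (exact permutation p = 0.278, adjusted 0.298), neither called. The kidney value was -0.36 (exact permutation p = 0.316) without animal 5, which had 0 reads of Usp18.

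**Figure D4:**
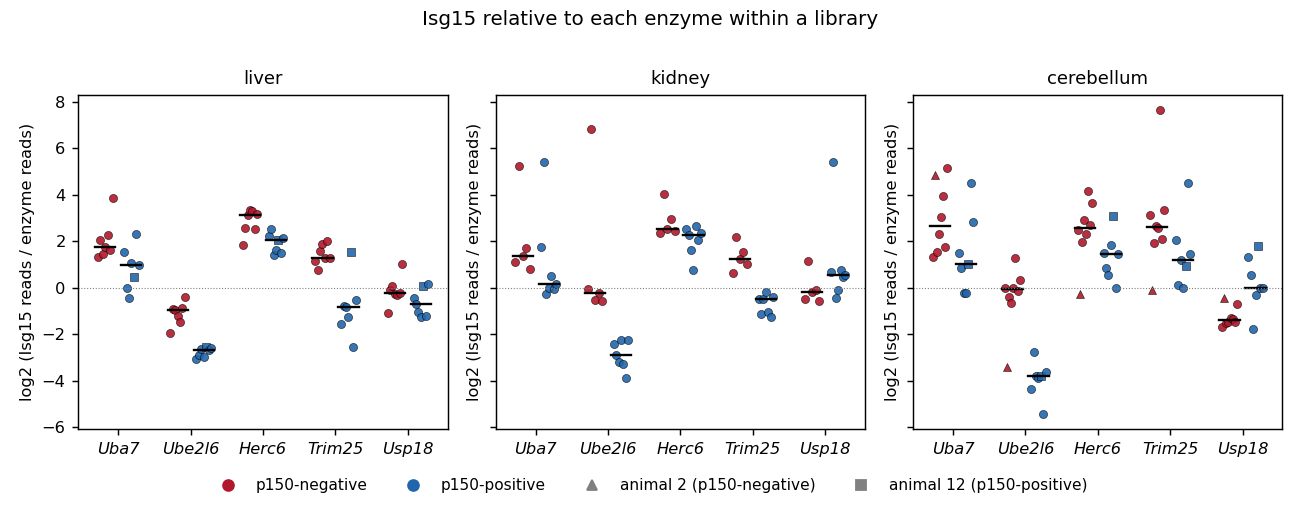
Log2 ratio of Isg15 reads to the reads of each enzyme in every library, p150-negative left of p150-positive, with a line at each group's median. The ratio to Ube2l6 is higher in p150-negative libraries of all 3 tissues, and the ratio to Usp18 is lower in p150-negative cerebellum; the points above 5 in kidney are libraries with 0 or 1 read of the enzyme.

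Libraries of several tissues came from the same animals, so Isg15 was compared between tissues within each genotype, on log2 CPM, in the 4 pairs with at least 6 animals. In p150-positive animals liver and kidney had Pearson's r = 0.976 (exact permutation p = 0.00833, adjusted 0.0167, n = 6) and Spearman's rho = 0.771 (exact permutation p = 0.103). Liver and cerebellum had r = 0.938 (exact permutation p = 0.00833, adjusted 0.0167, n = 6) and rho = 0.771 (exact p = 0.103). Without the 2 animals farthest from the liver median, r was 0.653 and 0.812 over 4 animals, too few for a test. Kidney and cerebellum had r = 0.39 (exact permutation p = 0.399, rho = 0.429 with exact p = 0.419, n = 6), and -0.939 without the 2 animals farthest from the kidney median. In p150-negative animals liver and cerebellum had r = 0.421 (exact permutation p = 0.345, adjusted 0.399, n = 7) and rho = 0.143 (exact p = 0.783), with r = 0.332 without 2 animals.

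**Figure D5:**
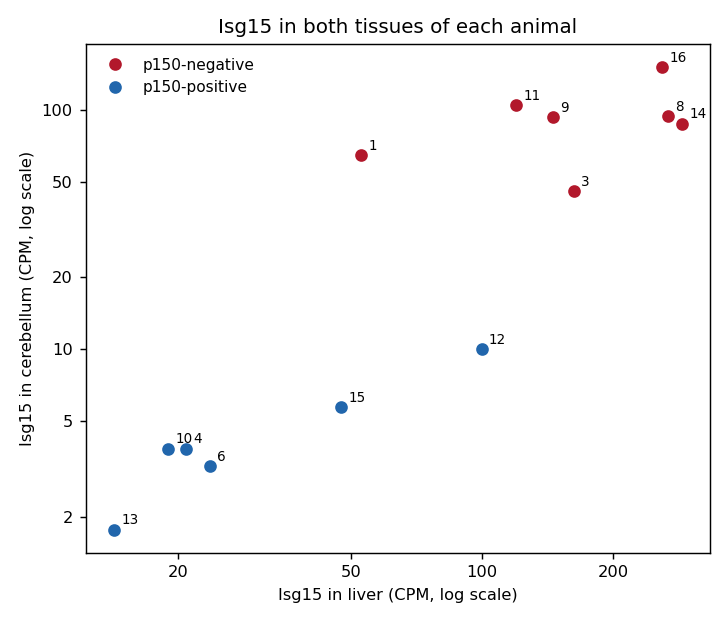
Isg15 in cerebellum against Isg15 in liver (both CPM, log scales) for the 7 p150-negative and 6 p150-positive animals with both libraries, with the animal number beside each point. Every p150-negative animal lies above every p150-positive animal in cerebellum, and p150-positive animal 12 is the only one of its genotype in the p150-negative range of liver.

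Of the genes around the pathway, 5 lists of 43 genes in all were read from the same fits. The first list holds genes of the interferon receptor and of factors that act below it. Irf7, an interferon regulatory factor that is itself interferon-induced, was called in all 3 tissues: it averaged 389 ± 132 CPM in p150-negative livers and 63.3 ± 39.3 CPM in p150-positive livers (SD, n = 7 each), with log2 fold changes of 2.63 ± 0.30 in liver, 2.33 ± 0.34 in kidney and 4.46 ± 0.61 in cerebellum (edgeR adjusted p = 7.7e-06, 0.00405 and 4.11e-04). Irf9, the DNA-binding subunit of ISGF3, was called in cerebellum at 3.51 ± 0.50 (edgeR adjusted p = 6.26e-04) and in liver at 0.89 ± 0.23 (edgeR adjusted p = 0.0119). In kidney Irf9 was not called (1.38 ± 0.57, edgeR adjusted p = 0.493). Stat2, another subunit of ISGF3, was called in cerebellum at 1.45 ± 0.26 (edgeR adjusted p = 0.00568), and in kidney it was not (1.33 ± 0.32, edgeR adjusted p = 0.0808).

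The relatives of the ISG15 enzymes were not called. Of the E1, E2 and HERC genes that serve ubiquitin and other modifiers, none of 11 tested in liver, 12 in kidney and 12 in cerebellum passed in either direction by edgeR's test, and the medians of their log2 fold changes were 0.13, -0.15 and -0.07. At an unadjusted p under 0.05, 0, 1 and 1 of them differed. Ube2l3, which encodes a close relative of UBE2L6 that works with ubiquitin, averaged 17.1 ± 5.5 CPM in p150-negative livers and 23.8 ± 6.0 CPM in p150-positive livers (SD, n = 7 each; edgeR adjusted p = 0.245). Of 6 other proteases reported to react with ISG15 or ligases, none of the 5 tested in liver and kidney and the 6 in cerebellum was called by edgeR, and 1, 0 and 1 had an unadjusted p under 0.05. Usp2 in liver averaged 22.8 ± 13.6 CPM in p150-negative animals and 57.9 ± 38.1 CPM in p150-positive animals (SD, n = 7 each; edgeR adjusted p = 0.15). Among 14 other ubiquitin-like modifiers 1 of the 13 tested in liver was called, and none of the 12 tested in kidney or the 13 in cerebellum. The gene called was Ubd, which encodes the cytokine-induced modifier FAT10. It averaged 47.9 ± 57.6 CPM in p150-negative livers and 1.32 ± 1.98 CPM in p150-positive livers (log2 fold change 4.95 ± 0.67, edgeR adjusted p = 3.75e-05). Ubd passed the count filter through the p150-negative livers, where it was high, so the filter favoured its call. In kidney and cerebellum Ubd was not tested. Of the integrin subunits that form LFA-1, a receptor reported for secreted ISG15, Itgb2 was called higher in liver at 2.20 ± 0.38 (edgeR adjusted p = 4.9e-04) and Itgal was not (0.79 ± 0.36, adjusted p = 0.189). Both are leukocyte genes, and the part of leukocyte number in their levels was not tested.

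The genes whose pattern was most like that of Isg15 were sought by Pearson's r of log2 CPM over the 41 libraries among 8736 other genes tested in all tissues, after each tissue's mean was taken away. They were Ifit3b (r = 0.965), Ifit3 (0.965), Oas1a (0.951), Irf7 (0.947), Rtp4 (0.941) and Xaf1 (0.931), all known interferon-stimulated genes. Ifit3 and Ifit3b are near-identical copies, so reads between them are uncertain. Usp18 ranked 16 (r = 0.89), Herc6 28 (0.856), Uba7 83 (0.642), Trim25 152 (0.51) and Ube2l6 1750 (0.0567). With the mean of each tissue and genotype taken away, so that only differences between animals of 1 group remained, the most like were Bst2 (0.931), Ifit3 (0.91), Ifit3b (0.887) and Rtp4 (0.854). Usp18 then ranked 23 (r = 0.697), Herc6 45 (0.59), Uba7 57 (0.553), Trim25 182 (0.366) and Ube2l6 438 (0.246). These values are descriptions of libraries that share animals and depth, and the cerebellum of animal 2 and liver of animal 12 are among them.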

How the data were processed

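Raw counts of reads per gene were deposited by the authors in a single table of 46 libraries. Per the submitters' processing notes, STAR 2.4.2a, HTSeq 0.4.1, SAMtools 1.2, Picard 1.134 and FastQC 0.11.3 were used, with builds GRCm38 and mm10; per the labels' protocols, libraries were made with NexteraXT. The strand setting of the counting is not given in the sources used here, so overlapping genes on opposite strands cannot be told apart. Of 53471 gene rows, 6 were duplicates and 53465 were used. The libraries numbered 4, 5, 20, 31 and 34 were left out because they hold RNA of other organs. The 6 genes and the lists of related and marker genes were chosen with earlier results of these data known.

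Each tissue was fitted alone with edgeR 4.0.16 (R 4.3.3): TMM factors, genes kept by filterByExpr with a minimum count of 10 and total of 15, quasi-likelihood tests, Benjamini-Hochberg adjustment over all genes tested and a threshold of 0.05. Each fold change divides p150-negative by p150-positive, and ± after a log2 fold change is a standard error. CPM were computed on library totals and divided by the union of exon lengths in GENCODE for levels per kilobase. The liver genotype fit was tried on simulated, independent libraries with the same dispersion for every gene. That simulation did not cover kidney, cerebellum, or the interaction and tissue tests. DESeq2 1.42.0, limma 3.58.1 voom, other filters and covariates, and leaving out each library in turn were alternatives; the fits without animal 2 or 12 in the interaction and tissue tests, and voom and DESeq2 without animal 2, were chosen after seeing the data. Libraries of different tissues are paired by the animal number in the labels, which was used as a block only in alternative fits. Genotypes share no animals. No 2 libraries held identical counts. Reads without molecular identifiers are not independent molecules, and p-values of tests within a tissue measure the spread between animals. The main interaction and tissue tests, and the exact tests between tissues, held no animal term. Libraries of 1 animal counted in them as independent. Genes named beyond the 6 are up to 4 per list and tissue with the smallest adjusted p, and those most like Isg15. Some results of these lists are not reported here.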

Additional observations from a re-analysis of the deposited data

Results flagged for a closer look

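In groups of 4 to 10 libraries, 8 of 36 combinations of gene and group held a library whose gap to the nearest other exceeded Dixon's 95% limit. Chance alone marks about 1 in 20 where values are normal and independent. The genes were measured in the same libraries, so the 8 are not independent and cannot be set against that share. All 8 were high p150-positive libraries. The liver of animal 12 was marked in 4 genes: Isg15 at 99.8 CPM (next highest 47.5), Ube2l6 at 584 CPM (287), Herc6 at 23.8 CPM (10.5) and Usp18 at 94.6 CPM (54.7). Its cerebellum was marked for Ube2l6 at 143 CPM (next 80.3). The other marked libraries were the kidney of animal 15 for Isg15 at 50.5 CPM (next 27.2), the cerebellum of animal 5 for Herc6 at 4.24 CPM (2.17) and the cerebellum of animal 6 for Usp18 at 11.4 CPM (5.74).

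The genotype effect on Usp18 differed between liver and cerebellum by -3.37 on the log2 scale, liver minus cerebellum, as tested by the interaction of genotype and tissue.

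Among the libraries left out, that labelled kidney of p150-negative animal 11 held all 6 genes above the highest p150-positive kidney used. It had Isg15 at 534 CPM (highest p150-positive kidney 50.5), Uba7 at 129 (45.7), Ube2l6 at 591 (244), Herc6 at 117 (15.9), Trim25 at 153 (66.3) and Usp18 at 567 (34.7). The library labelled kidney of p150-negative animal 2 had Trim25 at 123 CPM (66.3). These libraries hold RNA of another organ, so their values are not set against kidney as a genotype difference.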

How the results depend on the processing

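Over the fits of the 6 genes in 3 tissues, 411 of 435 alternative fold changes kept their direction and their side of the threshold, 13 fell short of it, 4 came to pass it and 7 changed sign. All 7 sign changes were of Ube2l6, which was called in none of them: 0.15 in kidney with all labelled libraries and, in cerebellum, -0.0147 with the identifier block, -0.00092 with Xist as a covariate, and from -0.11 to 0.31 with each library left out in turn. With all labelled libraries, the left-out ones included, the calls over all genes were 740 in liver (against 1152 in the fit reported) and 1 in kidney (against 83), the members called in kidney were 0, the members called between liver and kidney of p150-positive animals were 2 (against 5), and the called ratios of Isg15 to an enzyme were 1 in liver (against 4) and 0 in kidney (against 2). In kidney all genes called came to 307 with DESeq2, 141 with no filter, 32 with the identifier block (members 1), 211 without libraries under 1000000 counts and 229 in 1 fit of all tissues. Leaving out each kidney library gave 34 to 211 genes, moving the count over 1.5 times for 10 of 12 libraries, and 1 to 2 members. In cerebellum, where 131 genes were called, the counts were 290 with DESeq2, 62 with limma voom (members 0), 219 in 1 fit of all tissues and 285 with DESeq2 without animal 2. Leaving out each liver library gave 2 to 5 members called. With the animal as a replicate block, 2 members had a genotype effect that differed between liver and cerebellum (against 1); the blocked calls that changed are given with their results, and it changed no other. The correlation of Isg15 between kidney and cerebellum of p150-positive animals was -0.939 without 2 animals. Where the cause of a move is not fixed by the alternative's own construction, the cause was not tested. Herc6 and Trim25 in cerebellum rest on medians of 6 reads a library in p150-positive animals, so differences there are limited by depth.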

Other observations

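The 5 libraries that hold RNA of other organs belong in no comparison, and their member levels are given as values. The libraries labelled liver and kidney of p150-negative animal 2 had 6.17 and 0.278 CPM of Isg15 and 9.65 and 3.33 CPM of Usp18, beside 2.56 and 3.475 CPM in its cerebellum. The library labelled kidney of p150-positive animal 12 had 196 CPM of Isg15 and 76.2 CPM of Usp18. The library labelled cerebellum of p150-positive animal 7 had 4.31 CPM of Isg15 and 9.49 CPM of Usp18.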
